A study of Danio rerio with 13 samples.

Results

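Wild-type enteroendocrine cells (EECs) of the zebrafish gut were set against wild-type pancreatic endocrine cells (PECs), across every gene in the count tables. The comparison used 7 of the 13 libraries of the series, 4 of EECs and 3 of PECs. It left out the 6 libraries of pax6b mutants, except in a comparison of the mutant tissues and in an alternative fit of all 13 libraries. Both cell types came from fish of the AB strain carrying the transgene Tg(pax6b:GFP)ulg515, in which regulatory DNA of the transcription factor gene pax6b drives green fluorescent protein, and both were sorted by FACS for that fluorescence. EECs came from guts dissected at 4 dpf (days post fertilization) from about 200 larvae, without pancreas, as about 3000 cells per preparation. PECs came from dorsal pancreatic buds dissected at 27 hpf (hours post fertilization) from about 200 embryos, and the cell number of the PEC preparations was not given in the sources used here. Neither the labels nor the methods name a drug or other treatment for these groups. Gut cells were released with collagenase IV and Dispase, and pancreatic cells with TrypLE Select and collagenase IV. Tissue, age and dissociation thus go together in these libraries and cannot be told apart. Each library pools many animals, so the spread between replicates, and every p-value below, measures the spread between preparations, which may be partly technical.

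EECs are single hormone-secreting cells scattered through the gut lining, where they sense nutrients, irritants and microbial products from the lumen and release peptides and serotonin that act on digestion, motility and appetite. The pancreatic endocrine cells of the early dorsal bud are the first insulin, somatostatin and glucagon cells of the embryo and form the first islet. Both cell types use a set of transcription factors (Pax6, NeuroD1, Isl1, Insm1), the machinery that cuts prohormones and packs them in dense-core granules, and calcium-triggered exocytosis, and they differ in their hormones, their epithelium and their position along the body axis.

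The libraries held 25827909 to 61512908 counts on genes in EECs and 29237026 to 61895597 in PECs, and genes with any count numbered 24212 to 28521 per library. The floor of 3 counts lay between 0.0485 and 0.116 CPM (a gene's count scaled to a fixed library total) in the 7 libraries. Levels are given as CPM in the order of replicates 1 to 4 for EECs and 1 to 3 for PECs, and are shares of counts that are not corrected for gene length, so they are not compared between genes. The log2 CPM of pairs of libraries correlated at 0.936 to 0.975 within EECs, 0.955 to 0.986 within PECs and 0.797 to 0.841 between the tissues, across genes that are not independent replicates. A pair of genes without a symbol took 1.57 to 10.5% of the counts in EECs and 6.25 to 22.2% in PECs. Mitochondrially encoded protein genes took 3.25 to 4.06% in EECs and 1.86 to 2.56% in PECs, and other mitochondrially encoded genes were not counted in this share. The cDNA was amplified without molecular identifiers, so floors and counting intervals cover counting error only.

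The sorted cells carried the genes that define endocrine cells in both tissues. pax6b itself, whose regulatory DNA marked the cells, stood at 557, 735, 466 and 807 CPM in EECs and 5086, 3660.3 and 2509 CPM in PECs, lower in every EEC library than in any PEC library (log2 fold change, EECs over PECs, -2.53 ± 0.35 (SE), adjusted p = 0.000137, from the quasi-likelihood F test of edgeR after Benjamini-Hochberg correction, as for all adjusted p-values here). Its duplicate pax6a was below 1 CPM in every EEC library, with 0.276, 0.446, 0.0970 and 0.0387 CPM in EECs and 3.18, 2.33 and 1.87 CPM in PECs (log2 fold change -3.49 ± 0.82, adjusted p = 0.00628). The granule protein gene scg3 and the prohormone carboxypeptidase gene cpe, both abundant in neuroendocrine cells, lay within 2-fold between the tissues, as given below. A list of 17 genes common to enteroendocrine and islet cells summed to 10213 to 11139 CPM in EECs and 15673 to 21456 CPM in PECs. These libraries are bulk samples, so a lower value can come from fewer cells of a type or from less RNA of that gene per cell, and these cannot be told apart.

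The tissues differed in a large part of the genes. Of 19610 genes tested, 6712 were called at an adjusted p under 0.1, the study's own false discovery limit, which is 34.2% of them. Higher levels in EECs were called for 3650 genes (18.6%), and higher levels in PECs for 3062 (15.6%). This balance turned, to 3043 and 3671, where the library totals left out a pair of abundant genes without a symbol. The median log2 fold change over all tested genes was 0.01. At the other end, 2238 genes (11.4%) had a 95% interval that lay wholly within 2-fold in either direction, and 10660 were neither called nor bounded in this way. Most calls were large: 5880 exceeded 2-fold, and 780 genes higher in EECs and 384 higher in PECs exceeded 16-fold. In 5817 of the called genes (86.7%) the EEC and PEC libraries did not overlap. The share of genes called rose with the level, from 10.3% where the tissue with more of a gene averaged below 1 CPM to 57.4% (78 of 136) where it averaged 1000 CPM or more, so the lists described below, which differ in level, are read beside their own values and not by their counts alone. The count called in each list stands beside the 18.6% and 15.6% of all genes. When the 2 tissues of pax6b mutants were compared in the same way, 6365 of the 6712 called genes were tested, 5982 of these (94.0%) differed in the same direction, 4588 (72.1%) were called in it and 78 were called in the other.

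**Figure D1:**
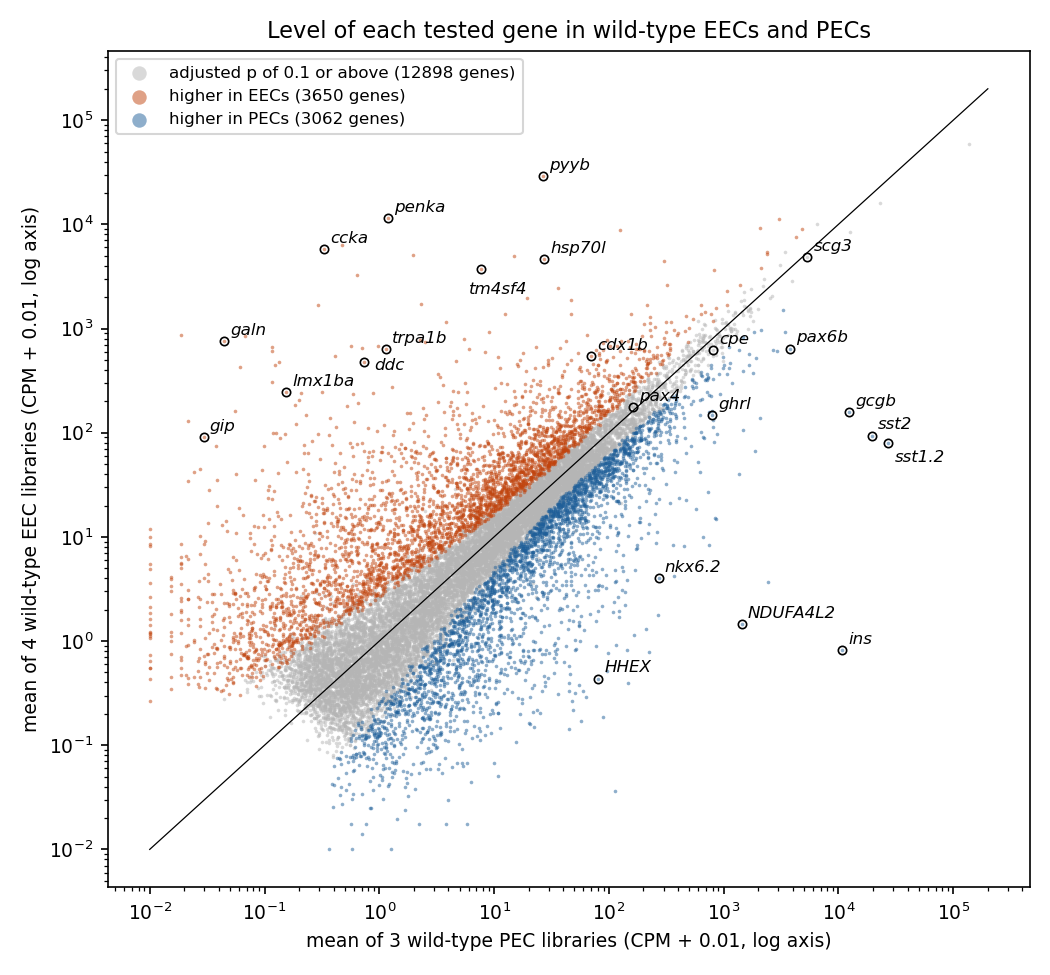
Mean level of each tested gene in wild-type EECs (4 libraries, vertical axis) against wild-type PECs (3 libraries, horizontal axis), in CPM plus 0.01 on log axes, with genes higher in EECs in orange, higher in PECs in blue and not called in grey. Points higher in EECs (3650) and higher in PECs (3062) lie on both sides of the diagonal at all levels, with a band of uncalled genes along it.

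Among the genes with the largest difference in favour of EECs was plac8.1, which stood at 516, 699, 639 and 1595 CPM in EECs and 0.0260, 0 and 0 CPM in PECs. Its 116213 counts in EECs against 1 count in PECs gave a ratio of 99104 at equal totals (95% exact interval 17787 to 3914450). The transmembrane gene tmem176l.2 stood at 1608, 2471, 2750.2 and 6217 CPM in EECs and 0.886, 0.855 and 0.129 CPM in PECs (log2 fold change 12.43 ± 0.98, adjusted p = 1.36e-06), and si:zfos-2372e4.1 at 1229, 2035, 1326 and 2127 CPM in EECs and 0.469, 0.205 and 0.178 CPM in PECs (12.59 ± 0.62, adjusted p = 3.98e-08). All 3 were under 1 CPM in every PEC library and over 500 CPM in every EEC library. In favour of PECs, the ependymin gene epd stood at 0.0163, 0.0893, 0 and 0 CPM in EECs and 52.9, 161 and 128 CPM in PECs (log2 fold change -11.89 ± 0.68, adjusted p = 1.48e-07). A natriuretic peptide-like gene, nppal, differed more than 16-fold as well, with 2.1, 3.96, 0.291 and 8.48 CPM in EECs and 2853, 2266 and 2232 CPM in PECs (-9.31 ± 0.93, adjusted p = 1.88e-05). gnb5b, a G protein beta subunit, and NPTN, the cell adhesion gene neuroplastin, were also far higher in PECs, with log2 fold changes of -8.97 and -7.39. Of the called genes, 23 had no count in any PEC library and 3 had none in any EEC library.

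The genes with the largest share of counts were of several kinds, hormone, epithelial, mitochondrially encoded and noncoding genes among them. The galectin gene lgals2b stood at 9438, 10523, 8128 and 6885 CPM in EECs and 182, 153 and 41.2 CPM in PECs, without overlap (log2 fold change 6.08 ± 0.59, adjusted p = 7.53e-06). anxa4, an annexin of many epithelia, was high in both tissues but higher in EECs, at 14859, 9273, 11418 and 9348 CPM in EECs and 2964, 2783 and 3322 CPM in PECs (1.95 ± 0.30, adjusted p = 0.000311). The nuclear noncoding RNA malat1 was not called, with 4322, 8481, 9435 and 41147 CPM in EECs and 21149, 22174 and 26253 CPM in PECs, and EEC replicate 4 stood above all PEC libraries while the other EEC libraries stood below them. Without EEC replicate 4, malat1 was called higher in PECs (log2 fold change -1.61, adjusted p = 0.00367).

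The hormone genes differed widely between the tissues. Of 41 hormone and neuropeptide genes on a gut and an islet list, which share members, 37 were tested, with 17 higher in EECs and 16 in PECs, while 4 were not called and none lay within 2-fold. Of the 33 called, 32 did not overlap between tissues, beside 86.7% of all called genes. In EECs 8 hormone genes averaged more than 1000 CPM and in PECs 6 did, and a single one, gcga, did so in both. The gut list summed to 52023 to 74860.5 CPM in EECs and 54205 to 73158 CPM in PECs and these ranges overlapped, the somatostatin and proglucagon genes of the islet being on it too. The islet list summed to 2505 to 4249 CPM in EECs and 67542 to 79079 CPM in PECs.

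On the EEC side, 17 of 25 tested members of the gut list were higher in EECs and 7 in PECs, and 1 was not called (median log2 fold change 5.28). The study picked penka, adcyap1a and calca as EEC hormones for their high levels in its own EEC libraries. Their level and direction here, and their part in the counts of hormone genes, are thus not independent evidence. Peptide YY, which slows gastric emptying and feeding, took the largest share of counts among them in EECs, with pyyb at 29657, 32919, 29822 and 23382 CPM in EECs and 17.1, 20.9 and 41.3 CPM in PECs (log2 fold change 10.20 ± 0.47, adjusted p = 3.86e-08). ccka, coding for cholecystokinin, which drives gall bladder emptying and satiety, stood at 5547, 7559.8, 3651 and 6332 CPM in EECs and 0, 0.958 and 0 CPM in PECs (14.32 ± 1.6, adjusted p = 9.4e-05). Neither had an EEC library near its PEC values, and ccka had no count in PEC replicates 1 and 3. The relaxin-family hormone gene insl5a was at 2171, 3017, 7416 and 7926 CPM in EECs and 1.80, 3.08 and 0.986 CPM in PECs (11.40 ± 0.86, adjusted p = 9.45e-07). Proenkephalin, the precursor of enkephalin opioids, was encoded by penka at 5158, 12879.7, 11307 and 16273 CPM in EECs and 0.677, 2.77 and 0.0969 CPM in PECs (13.25 ± 1.3, adjusted p = 1.77e-05). adcyap1a, the gene of the neuropeptide PACAP, stood at 3949.8, 6770.1, 5967 and 8491 CPM in EECs and 0.521, 0.616 and 0.242 CPM in PECs (13.82 ± 0.69, adjusted p = 3.98e-08). EEC replicate 1 was the lowest EEC library for insl5a, penka and adcyap1a, yet remained over 1000 CPM in each.

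Several gut peptides were almost without counts in PECs. Galanin, a peptide of enteric and endocrine cells, had 101000 counts of galn in EECs (370.2, 475, 1217 and 953 CPM) and 3 in PECs, a ratio of 28710 (95% exact interval 9824 to 139222). The incretin gene gip had 15602 counts in EECs and 3 in PECs, a ratio of 4435 (1517 to 21508), but its EEC levels were 162, 51.9, 0.452 and 149 CPM, and EEC replicate 3 held little of it. vipb, for vasoactive intestinal peptide, stood at 176, 489, 1342 and 1397 CPM in EECs and 0.0260, 0.0342 and 0.113 CPM in PECs (log2 fold change 13.75 ± 1.06, adjusted p = 1.44e-06). Others were present in both tissues and higher in EECs: the motilin-like gene mlnl (6.73), the neuromedin B gene nmbb (6.64), the tachykinin gene tac1 (4.58) and calca, the calcitonin and CGRP gene (5.39). calca was at 1450.1, 1847, 1913 and 2279 CPM in EECs and 70.33, 28.8 and 39.9 CPM in PECs (adjusted p = 1.48e-06). The 2 peptide YY genes differed in degree, since pyya stood at 148, 301, 268 and 883 CPM in EECs and 71.7, 97.6 and 103 CPM in PECs (log2 fold change 2.24 ± 0.54, adjusted p = 0.00697), with all EEC libraries above all PEC libraries.

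gcga, one of the 2 proglucagon genes, was not called, at 1052, 1954, 2343 and 2133 CPM in EECs and 967, 889.9 and 2655 CPM in PECs (log2 fold change 0.47 ± 0.37, adjusted p = 0.397, 95% interval -0.34 to 1.28), and its EEC and PEC libraries overlapped. PEC replicate 3 held the most gcga of all libraries, and without it the log2 fold change was 0.94 (adjusted p = 0.0677). Its duplicate gcgb was at 163, 263, 49.99 and 159 CPM in EECs and 11320.2, 9584 and 16399 CPM in PECs (-6.22 ± 0.49, adjusted p = 1.24e-06), so the 2 proglucagon genes divided the tissues differently.

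On the PEC side, 16 of 23 tested members of the islet list were higher in PECs, 3 were higher in EECs and 4 were not called (median log2 fold change -2.71). Insulin was the widest apart, with ins at 1.79, 0.774, 0.485 and 0.194 CPM in EECs and 5532, 12991 and 13639.7 CPM in PECs (log2 fold change -13.57 ± 0.76, adjusted p = 1.2e-07). The somatostatin genes sst2 and sst1.2 took the largest shares of counts among the hormones of PECs. sst2 stood at 48.7, 74.8, 168 and 84.0 CPM in EECs and 25097, 17982 and 15386 CPM in PECs (-7.66 ± 0.52, adjusted p = 4.21e-07). sst1.2 stood at 24.5, 82.1, 134 and 79.6 CPM in EECs and 32570.1, 22962 and 25965 CPM in PECs (-8.35 ± 0.58, adjusted p = 5.06e-07). Both kept a low but clear level in every EEC library, whereas ins was under 2 CPM there. The third somatostatin gene, sst1.1, stood at 6.99, 0.863, 65.8 and 0 CPM in EECs and 384, 175 and 1169.9 CPM in PECs and was called by a narrow margin (-4.77 ± 1.79, adjusted p = 0.0893), with EEC replicate 3 far above the other EEC libraries. The call of sst1.1 was lost without EEC replicate 1 (adjusted p = 0.162) and without PEC replicate 1, 2 or 3 (0.256, 0.243 and 0.25). Reads that match several of these close copies cannot be assigned to a single copy, so these levels may be affected.

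Other peptides higher in PECs than in EECs included nmba, the second neuromedin B gene, at 7.20, 83.5, 31.0 and 38.4 CPM in EECs and 1233, 1099 and 1735 CPM in PECs (log2 fold change -5.02 ± 0.60, adjusted p = 3.69e-05), the opposite direction of nmbb. The hunger hormone gene ghrl, for ghrelin, stood at 136, 181, 179 and 94.4 CPM in EECs and 1098, 989 and 275 CPM in PECs (-2.46 ± 0.45, adjusted p = 0.00121), lowest among PECs in replicate 3 but still above all EECs. Betacellulin, a ligand of the EGF receptor family, was encoded by btc at 24.8, 50.6, 44.3 and 54.5 CPM in EECs and 325, 259 and 300.2 CPM in PECs (-2.70 ± 0.31, adjusted p = 3.03e-05). pnocb (prepronociceptin, -7.21), stc1l (stanniocalcin, -6.51), urp2 (a urotensin-related peptide, -6.39), pdyn (prodynorphin, -5.67) and ucn3l (urocortin 3, -4.54) were further peptide genes higher in PECs. For opioid precursors these genes thus split, penka being higher in EECs and pdyn and pnocb in PECs. The second prepronociceptin gene, pnoca, was not called (-2.30 ± 1.24, adjusted p = 0.221). It overlapped between tissues, at 9.62, 18.1, 2.39 and 53.5 CPM in EECs and 29.0, 11.9 and 342.5 CPM in PECs.

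Genes of granule formation and prohormone processing were called about as often as all genes, and some were bounded within 2-fold. Of 16 tested, 3 were called in favour of EECs (1 without PEC replicate 1 or 2) and 3 in favour of PECs, beside 18.6% and 15.6% of all genes. The other 10 were not called, of which 4 lay within 2-fold (median log2 fold change of the list -0.10). The secretogranin gene scg3 was at 4654, 4604, 4499.7 and 5461 CPM in EECs and 4896, 4376 and 6799 CPM in PECs (log2 fold change -0.07 ± 0.26, 95% interval -0.64 to 0.50). cpe (-0.86 to 0.30), the proSAAS gene pcsk1nl (-0.70 to 0.51) and scg2b (-0.71 to 0.50) also had intervals within 2-fold. pam, the enzyme that amidates peptides such as peptide YY and cholecystokinin, was at 447, 426, 666 and 447 CPM in EECs and 62.6, 52.7 and 171 CPM in PECs (2.53 ± 0.37, adjusted p = 0.0002), with no overlap. scgn, the calcium sensor secretagogin, was higher in PECs at 684, 964, 1126 and 1095 CPM in EECs and 1409, 2062 and 2884 CPM in PECs (-1.04 ± 0.30, adjusted p = 0.0192), as were chgb (-1.98) and the prohormone convertase gene pcsk1 (-0.97, adjusted p = 0.0948). The call of pcsk1 was lost without EEC replicate 1, 2 or 4 or PEC replicate 3 (adjusted p = 0.159, 0.179, 0.178 and 0.611). The second convertase gene, pcsk2, was not called and overlapped between tissues, at 198, 240.1, 206 and 10.8 CPM in EECs and 55.8, 101.4 and 715 CPM in PECs. Which tissue had more called genes in this list changed with the processing and is not read here.

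Of 36 tested genes of regulated exocytosis, 9 were higher in EECs and 11 in PECs (median log2 fold change -0.06), beside 18.6% and 15.6% of all genes. The SNARE genes snap25a and vamp2 lay within 2-fold. The sharpest difference was the complexin gene cplx4c, at 30.5, 27.1, 22.4 and 58.8 CPM in EECs and 0.417, 0.205 and 0.0808 CPM in PECs (log2 fold change 7.30 ± 0.69, adjusted p = 5.84e-06). Among the synaptotagmins, calcium sensors of vesicle fusion, syt4 (2.06) and syt5b (1.76) were higher in EECs, while syt1a, at 405, 332, 341 and 228 CPM in EECs and 876, 753 and 772 CPM in PECs, and syt7a (-4.91) were higher in PECs. The calcium sensors thus divided between the tissues while these SNARE genes stayed within 2-fold. The list as a whole had more members called in EECs than in PECs under some alternatives.

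Endocrine transcription factors were called more often in favour of PECs. Of 40 tested, 18 were higher in PECs, 8 were higher in EECs and 14 were not called (median log2 fold change -0.25), against 15.6% and 18.6% of all genes. Their sum was 5359 to 6494 CPM in EECs and 12148 to 15628 CPM in PECs. isl1, a LIM homeodomain factor, stood at 116, 143, 92.6 and 73.3 CPM in EECs and 1359, 1060.0 and 2020.3 CPM in PECs (-3.72 ± 0.29, adjusted p = 1.18e-06), and neurod1 (-2.21) and rfx6 (-2.15) were also lower in EECs. Some other factors were below 10 CPM in every EEC library. mnx1, a beta cell factor, was at 1.51, 0.655, 0.840 and 0.581 CPM in EECs and 128, 120.4 and 97.5 CPM in PECs (-6.95 ± 0.41, adjusted p = 1.62e-07). HHEX, a factor of somatostatin cells in mice, was at 0.471, 0.119, 0.840 and 0.271 CPM in EECs and 58.1, 50.6 and 132 CPM in PECs (-7.41 ± 0.55, adjusted p = 8.66e-07). emx2 (-7.08) and nkx6.2 (-6.03) were also under 10 CPM in every EEC library and over 50 CPM in every PEC library. pdx1, used by both pancreas and anterior gut, was only moderately lower in EECs, at 397, 356, 471 and 649.9 CPM in EECs and 1001, 1040.4 and 1354 CPM in PECs (-1.19 ± 0.29, adjusted p = 0.0082).

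In favour of EECs the widest gap among these factors was lmx1ba, a LIM homeodomain gene known in mice for serotonin neurons, at 203, 238, 362 and 178 CPM in EECs and 0.156, 0 and 0.275 CPM in PECs (log2 fold change 10.66 ± 0.65, adjusted p = 2.02e-07). Its relative lmx1al followed at 5.88 but was low, averaging 1.72 CPM in EECs and 0.0248 CPM in PECs. neurog3, the factor that starts endocrine differentiation in mice, was low but higher in EECs, at 8.27, 10.0, 4.2 and 4.41 CPM in EECs and 0.287, 0.342 and 0.210 CPM in PECs (4.60 ± 0.62, adjusted p = 0.000106). The zinc finger paralogues insm1a and insm1b went opposite ways. insm1b stood at 658, 570.4, 556 and 244 CPM in EECs and 75.6, 72.4 and 102 CPM in PECs (2.66 ± 0.33) and insm1a at 90.7, 112, 124 and 60.1 CPM in EECs and 1136, 603 and 889 CPM in PECs (-3.13 ± 0.32), with adjusted p = 5.82e-05 and 1.08e-05 and no overlap for either. pax4, which works in precursors of beta and delta cells in mice, lay within 2-fold (95% interval -0.67 to 0.89), and the alpha cell factor arxa was not called (adjusted p = 0.574).

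The hox genes, which give cells their position along the head-to-tail axis and are numbered from the front (group 1) to the back (group 13), were mostly higher in EECs. Of 31 tested, 23 were higher in EECs and 1 in PECs, and 7 were not called (median log2 fold change 5.09). Most of these calls were at the posterior end. In groups 9 to 13, 18 of 19 genes were higher in EECs and their sum was 188 to 291 CPM in EECs against 2.22 to 5.54 CPM in PECs, while groups 1 to 4 summed to 55.6 to 95.3 CPM in EECs and 75.3 to 85.6 CPM in PECs. The median log2 fold change of groups 9 to 13 was 6.35, a fitted value that depends on the prior count where PECs had none, and 6.11 with the 2 such genes at their lower bounds.

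hoxb10a stood at 33.7, 40.2, 33.4 and 29.3 CPM in EECs and 0, 0.0342 and 0 CPM in PECs, which is 5215 counts against 1, a ratio of 4447 (95% exact interval 798 to 175691). hoxa13b and hoxd12a had no count in any PEC library, and against a floor of 3 counts per library they were at least 113-fold and at least 64.9-fold higher in EECs. hoxd9a, at the front of the posterior block, was at 15.6, 24.9, 33.4 and 21.1 CPM in EECs and 0, 0.308 and 0.614 CPM in PECs (log2 fold change 6.34 ± 0.79, adjusted p = 5.06e-05). The anterior gene hoxc1a was the exception, at 2.15, 2.65, 2.91 and 2.75 CPM in EECs and 71.0, 64.1 and 61.8 CPM in PECs (-4.61 ± 0.31, adjusted p = 3.47e-07), and hoxc3a, from the same cluster, was higher in EECs at 43.5, 74.6, 82.6 and 46.4 CPM in EECs and 8.96, 9.27 and 14.3 CPM in PECs (2.59 ± 0.32, adjusted p = 5.23e-05). In all 3 PEC libraries hoxc1a took the largest share of counts among the hox genes, a share that is not corrected for gene length.

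**Figure D2:**
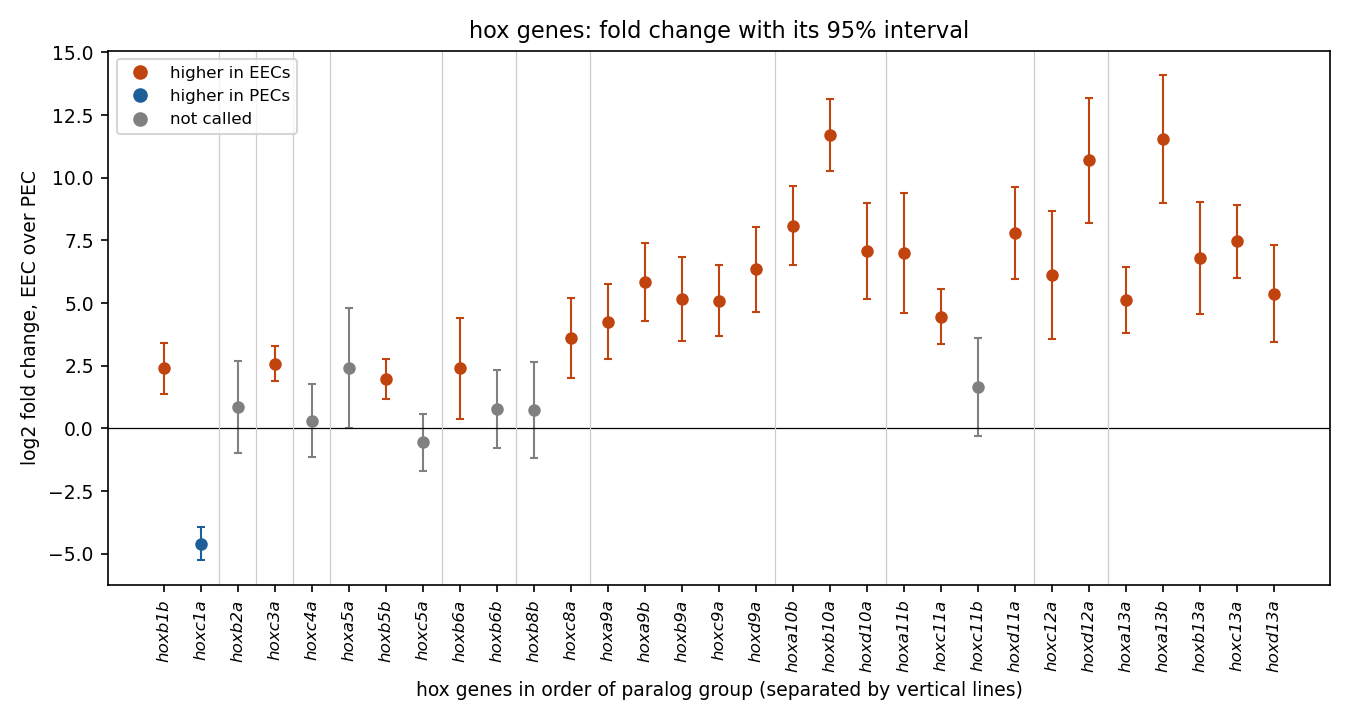
Log2 fold change of each tested hox gene, wild-type EECs over PECs, in order of paralogue group from 1 to 13, with 95% intervals as bars and genes called higher in EECs in orange, called higher in PECs in blue and not called in grey. Groups 9 to 13 lie above 0 with 18 of 19 genes called, and hoxc1a in group 1 is the single gene called below 0.

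Factors of the intestinal epithelium were higher in EECs in 20 of 26 tested genes and higher in PECs in 2 (median log2 fold change 3.23). The caudal-type factor cdx1b, which specifies intestinal endoderm in zebrafish, stood at 686, 520.0, 648 and 314 CPM in EECs and 98.1, 48.9 and 63.4 CPM in PECs (log2 fold change 2.98 ± 0.37, adjusted p = 4.92e-05). elf3, an epithelial ETS factor, was at 615, 840.2, 442 and 782 CPM in EECs and 21.2, 16.3 and 32.5 CPM in PECs (4.94 ± 0.36, adjusted p = 6.55e-07), and tcf7l2, an effector of Wnt signalling in gut crypts of mice, at 27.9, 30.8, 38.0 and 32.4 CPM in EECs and 0.703, 0.410 and 0.178 CPM in PECs (6.27 ± 0.55, adjusted p = 3.21e-06). gata4, gata5 and gata6, endodermal zinc finger factors, were all higher in EECs. cdx4, a caudal gene of the early embryo, went the other way with 39.3, 42.8, 25.2 and 36.9 CPM in EECs and 178, 155 and 102 CPM in PECs (-2.0 ± 0.31, adjusted p = 0.000333). The foregut factor foxa2 (-0.76) and hnf1ba (-1.50) were the 2 list members higher in PECs, and foxa3 lay within 2-fold. The call of foxa2 was lost without EEC replicate 1 or PEC replicate 1 or 3 (adjusted p = 0.135, 0.142 and 0.122).

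Genes of absorptive enterocytes were present in the EEC libraries and nearly absent from PECs, as 16 of 21 tested enterocyte markers were higher in EECs and none in PECs (by edgeR, 0 at an unadjusted p under 0.05 and 0 by DESeq2), with sums of 5615 to 6566 CPM in EECs and 43.1 to 53.0 CPM in PECs. The tetraspan gene tm4sf4, at 3469, 4339, 3352 and 3598 CPM in EECs and 7.29, 7.80 and 7.92 CPM in PECs, gave the largest part of that sum in EECs. tm4sf4 is also on the study's marker list for epsilon (ghrelin) islet cells, so the sum is not particular to enterocytes. vil1, for the brush border protein villin, was at 1170.2, 815, 1234 and 1361 CPM in EECs and 1.85, 1.74 and 7.79 CPM in PECs (log2 fold change 8.41 ± 0.60, adjusted p = 5.76e-07), and anpepb, an aminopeptidase of the brush border, at 461, 736, 699 and 832 CPM in EECs and 1.17, 0.479 and 0.0162 CPM in PECs (10.30 ± 1.04, adjusted p = 2.18e-05). The fatty acid binding gene fabp2, one of the most abundant enterocyte transcripts, reached 74.8, 91.1, 49.2 and 96.8 CPM in EECs. Some of these genes may be used by EECs themselves, and the part of enterocytes in the gene groups that follow was not tested. Epidermal markers moved with them, with 8 of 16 higher in EECs, 2 in PECs and sums of 4285 to 8159 CPM in EECs and 66.1 to 88.6 CPM in PECs, the largest part from icn at 5243, 7489.9, 3408 and 3827 CPM in EECs and 8.13, 28.6 and 8.24 CPM in PECs. Leukocyte markers summed to 64.9 to 93.2 CPM in EECs and 6.53 to 10.7 CPM in PECs (by edgeR 2 of 10 were called, both higher in EECs, and in favour of PECs there were 2 at an unadjusted p under 0.05 and 2 called by DESeq2). Most of this sum in EECs came from rac2, at 61.9, 77.6, 57.7 and 84.9 CPM in EECs and 0.808, 1.33 and 2.81 CPM in PECs. The leukocyte genes ptprc, spi1b, MFAP4, marco and lck averaged under 2 CPM in both tissues and were not called. Goblet cell markers summed to 71.4 to 149.8 CPM in EECs and 19.5 to 40.5 CPM in PECs (2 of 6 called, both higher in EECs, and 0 in favour of PECs at an unadjusted p under 0.05 by edgeR and 0 called by DESeq2).

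Lipid absorption genes were among the groups most one-sided towards EECs, with 22 of 28 higher there and 1 in PECs (median log2 fold change 2.98). mttp, which loads lipid on lipoproteins, stood at 88.3, 91.8, 69.9 and 69.3 CPM in EECs and 0.625, 0.855 and 0.162 CPM in PECs (log2 fold change 7.24 ± 0.59, adjusted p = 1.57e-06). abcg5, a sterol transporter (8.56), and acsl5, which activates fatty acids (7.07), were also higher in EECs, while the triglyceride synthesis gene dgat2 was higher in PECs (-3.84). Of 39 nuclear receptors and related sensors, 14 were higher in EECs, including the fatty acid receptor genes pparaa (6.09) and pparg (5.35). Both were low, averaging 2.90 and 2.27 CPM in EECs and 0.0450 and 0.0542 CPM in PECs. The aryl hydrocarbon receptor gene ahr2 (1.58) and the pregnane X receptor gene NR1I2 (1.4), which sense foreign compounds, were called too. Among the 14 were nr1d1, nr1d2a and nr1d2b, which are also on the clock list. The receptor gene nr1h3 lay within 2-fold (0.10), and NR1H4 was not called (2.32, adjusted p = 0.177). In PECs 5 of the list were higher, 3 when any one PEC library was left out. Over all genes, 18.6% were higher in EECs and 15.6% in PECs. Among these 5 was ppardb, of the same family as pparaa and pparg, averaging 30.1 CPM in EECs and 62.3 CPM in PECs (-1.02, adjusted p = 0.0237). Another was the aryl hydrocarbon receptor gene ahr1b (-2.23), which was low, averaging 0.264 CPM in EECs and 1.35 CPM in PECs. Both families thus had members in either direction.

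Xenobiotic metabolism and efflux is a theme that the study itself raised from these libraries, so its direction is not independent evidence. Of 89 tested genes, 55 were higher in EECs and 3 in PECs (median log2 fold change 2.06), and the sums were 2113 to 3167 CPM in EECs and 821 to 949 CPM in PECs. cyp1a, the monooxygenase induced through the aryl hydrocarbon receptor, stood at 121, 223, 441 and 187 CPM in EECs and 0.287, 0.547 and 0.0808 CPM in PECs (log2 fold change 9.77 ± 0.79, adjusted p = 1.6e-06). The efflux pump genes abcg2a, at 60.8, 96.6, 153 and 171 CPM in EECs and 0.0260, 0.205 and 0.307 CPM in PECs (9.44 ± 0.68, adjusted p = 6.5e-07), and abcb4, at 158, 137, 133 and 204 CPM in EECs and 2.92, 6.26 and 1.68 CPM in PECs (5.45 ± 0.54, adjusted p = 8.5e-06), were higher in every EEC library. cyp1c1, of the same enzyme family as cyp1a, took the opposite direction, with 0.211, 1.46, 4.98 and 0.0774 CPM in EECs and 66.3, 82.3 and 217 CPM in PECs (-6.05 ± 1.13, adjusted p = 0.00352).

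**Figure D3:**
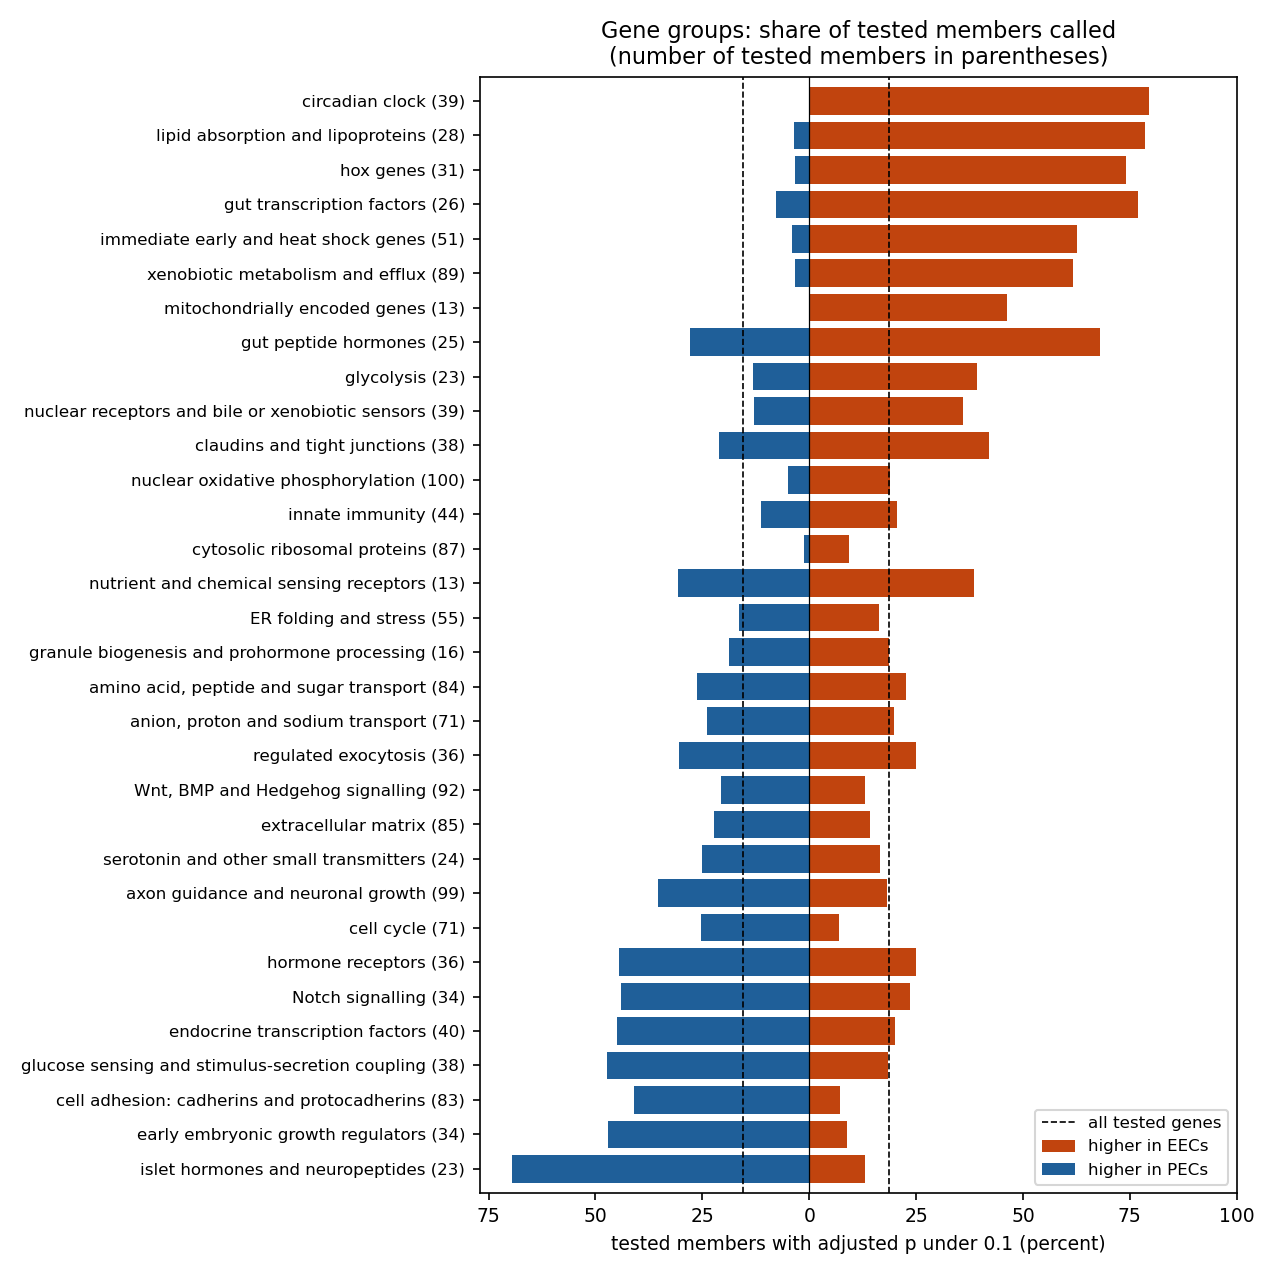
Members called higher in EECs (to the right) and higher in PECs (to the left) as a percentage of the tested members of each pathway list, with the shares over all genes (18.6% and 15.6%) as dashed lines. Clock genes (31 of 39), lipid absorption, hox genes and gut transcription factors lean to EECs, and islet hormones (16 of 23), early embryonic genes and adhesion lean to PECs.

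Genes of sensing receptors divided gene by gene. The irritant channel gene trpa1b, known in zebrafish EECs, stood at 229, 545, 856 and 896 CPM in EECs and 1.25, 0.923 and 1.2 CPM in PECs (log2 fold change 9.22 ± 0.62, adjusted p = 3.76e-07), and trpm5, a cation channel of taste-like transduction, followed (5.40). trpm5 was low, averaging 2.73 CPM in EECs and 0.0617 CPM in PECs. CASR, the calcium and amino acid sensing receptor, was higher in PECs at 16.8, 22.9, 12.5 and 2.09 CPM in EECs and 50.1, 50.1 and 80.3 CPM in PECs (-2.10 ± 0.51, adjusted p = 0.00788), as was the second trpa1 gene, trpa1a (-1.59). In all, 5 of 13 sensing receptors were higher in EECs (3 without PEC replicate 2) and 4 in PECs (median log2 fold change -0.02).

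Serotonin synthesis genes were higher in EECs. tph1b, the first enzyme of that pathway, was at 121, 195, 291 and 148 CPM in EECs and 13.6, 9.85 and 22.7 CPM in PECs (log2 fold change 3.73 ± 0.38, adjusted p = 1.14e-05), and ddc, the second, at 392, 521, 505 and 505 CPM in EECs and 1.22, 0.342 and 0.614 CPM in PECs (9.41 ± 0.53, adjusted p = 1.15e-07). mao, which degrades serotonin, was also higher in EECs at 377, 437, 515 and 653 CPM in EECs and 42.8, 42.9 and 53.6 CPM in PECs (3.49 ± 0.32, adjusted p = 4.59e-06). In PECs the vesicular transporter genes for acetylcholine, slc18a3a (-7.36), and for glutamate, slc17a6b (-3.42), and the choline acetyltransferase gene chata (-4.12) were higher. In the whole list 4 of 24 were higher in EECs and 6 in PECs (median log2 fold change -0.17), beside 18.6% and 15.6% of all genes.

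Receptors for hormones leaned to PECs, with 16 of 36 higher there and 9 higher in EECs (median log2 fold change -0.51). Over all genes these shares were 15.6% and 18.6%. The glucagon receptor gene gcgra stood at 1.2, 2.32, 0.970 and 1.70 CPM in EECs and 41.2, 53.8 and 51.6 CPM in PECs (log2 fold change -4.94 ± 0.37, adjusted p = 9.6e-07) and rxfp3, a relaxin-family receptor, at 6.0, 5.68, 4.27 and 2.71 CPM in EECs and 91.1, 84.8 and 223 CPM in PECs (-4.71 ± 0.36, adjusted p = 9.6e-07). The ghrelin receptor gene ghsra (-4.78) was also higher in PECs but low, averaging 0.0929 CPM in EECs and 2.94 CPM in PECs. Higher in EECs were galr1a, a galanin receptor, at 6.71, 13.1, 16.2 and 14.4 CPM in EECs and 0.0781, 0.103 and 0.0323 CPM in PECs (7.59 ± 0.69, adjusted p = 4.58e-06), and OPRL1, the receptor for nociceptin, at 62.4, 53.5, 62.6 and 44.4 CPM in EECs and 0.938, 2.98 and 5.14 CPM in PECs (4.32 ± 0.47, adjusted p = 1.77e-05). For galanin both ligand and receptor were thus higher in EECs. For nociceptin the precursor gene pnocb was higher in PECs and the receptor in EECs, while the other precursor gene, pnoca, was not called.

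Genes of glucose sensing and stimulus-secretion coupling leaned to PECs, 18 of 38 against 7 higher in EECs (median log2 fold change -1.01). Over all genes these shares were 15.6% and 18.6%. Of the ATP-sensitive potassium channel, the beta cell subunits were lower in EECs but present in every library, kcnj11 at 16.8, 24.5, 12.7 and 22.8 CPM in EECs and 100.5, 145 and 298 CPM in PECs (log2 fold change -3.12 ± 0.34, adjusted p = 1.92e-05) and abcc8 at 142, 69.6, 141 and 96.7 CPM in EECs and 294, 277 and 526 CPM in PECs (-1.60 ± 0.30, adjusted p = 0.00155). abcc9, another regulatory subunit of such channels, was higher in EECs, at 6.19, 4.91, 2.1 and 6.39 CPM in EECs and 0.521, 0.923 and 0.937 CPM in PECs (2.69 ± 0.60, adjusted p = 0.00463). The glucose transporter gene slc2a3a stood at 6.15, 4.91, 2.81 and 6.47 CPM in EECs and 220.3, 97.3 and 73.9 CPM in PECs (-4.67 ± 0.46, adjusted p = 7.83e-06). slc5a1, the sodium-coupled glucose transporter of the gut, was at 37.1, 57.0, 82.1 and 54.2 CPM in EECs and 1.77, 1.47 and 1.53 CPM in PECs (5.23 ± 0.40, adjusted p = 9.71e-07). Another slc5 gene, SLC5A10, went the other way, averaging 0.778 CPM in EECs and 222.6 CPM in PECs (-8.01 ± 0.75, adjusted p = 8.22e-06). The glucose transporter gene slc2a2 was not called (0.36 ± 0.47, adjusted p = 0.62). The slc5 genes thus pointed opposite ways, and not all slc2 genes were higher in PECs. The L-type calcium channel gene cacna1da (-3.31) and glucokinase, gck (-0.77), were higher in PECs, the latter not without EEC replicate 1, 2 or 4 or PEC replicate 3 (adjusted p = 0.152, 0.164, 0.12 and 0.331).

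The epithelium around the secretory core differed as well. Claudins and other tight junction genes leaned to EECs, with 16 of 38 higher there and 8 higher in PECs (median log2 fold change 0.37, and 5 without PEC replicate 2). Over all genes these shares were 18.6% and 15.6%. The intestinal claudin gene cldn15la stood at 1482, 1685, 1204 and 1192 CPM in EECs and 47.7, 44.8 and 46.6 CPM in PECs (log2 fold change 4.94 ± 0.31, adjusted p = 2.46e-07) and cldn15lb at 424, 559, 603 and 768 CPM in EECs and 6.93, 8.62 and 9.39 CPM in PECs (6.22 ± 0.38, adjusted p = 2.02e-07). cldn11a was higher in PECs, at 14.4, 23.1, 14.4 and 9.18 CPM in EECs and 100.4, 88.4 and 80.1 CPM in PECs (-2.54 ± 0.31, adjusted p = 4.8e-05).

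Cadherins and protocadherins, which the study also named as a theme from these libraries, so that their direction is not independent evidence, leaned to PECs, 34 of 83 against 6 higher in EECs (3 without EEC replicate 2, median log2 fold change -1.18). The classical cadherins pointed opposite ways. cdh1, for E-cadherin of epithelia, was at 514, 369.6, 515 and 1696 CPM in EECs and 91.4, 109.8 and 85.6 CPM in PECs (log2 fold change 3.09 ± 0.55, adjusted p = 0.000904) and CDH2, for N-cadherin, at 29.2, 20.9, 26.2 and 15.02 CPM in EECs and 224, 192 and 396 CPM in PECs (-3.47 ± 0.30, adjusted p = 2.55e-06). cdh17, for the liver-intestine cadherin, stood at 252, 469, 505 and 707 CPM in EECs and 7.19, 4.82 and 1.79 CPM in PECs (6.72 ± 0.64, adjusted p = 6.23e-06), and the epithelial adhesion gene epcam lay within 2-fold (95% interval -0.90 to 0.42). PCDH10 (-5.41), cdh4 (-5.27) and cntn4 (-4.66), known from neurons, were higher in PECs.

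Of 99 genes of axon guidance and neuronal growth, 35 were higher in PECs and 18 in EECs (median log2 fold change -0.48), beside 15.6% and 18.6% of all genes. The ephrin ligand gene efnb2a stood at 5.97, 5.86, 3.75 and 3.76 CPM in EECs and 201, 138 and 169 CPM in PECs (log2 fold change -5.09 ± 0.30, adjusted p = 1.89e-07), and the microtubule regulator STMN1 at 30.1, 18.8, 10.6 and 31.1 CPM in EECs and 449, 570.2 and 385 CPM in PECs (-4.34 ± 0.41, adjusted p = 5.92e-06). robo3, an axon guidance receptor, was higher in EECs at 142, 95.01, 114 and 94.4 CPM in EECs and 9.20, 7.83 and 29.2 CPM in PECs (3.01 ± 0.39, adjusted p = 7.96e-05). Markers of neural progenitors and brain moved with this group and with the adhesion genes, as 11 of 16 were higher in PECs (7 without PEC replicate 1 or without PEC replicate 3) and none in EECs (by edgeR, 0 at an unadjusted p under 0.05 and 0 by DESeq2), with sums of 49.4 to 68.1 CPM in EECs and 427 to 598 CPM in PECs. The radial glia gene fabp7a led them in PECs, at 10.5, 6.34, 15.06 and 3.29 CPM in EECs and 349, 273 and 154 CPM in PECs. nova2 gave most of the sum in EECs, at 47.8, 46.3, 45.6 and 37.2 CPM, and stood at 161, 146 and 182 CPM in PECs. SOX2, sox19a, sox19b, sox1b and otx2b were not called and were low, the highest average being 3.84 CPM for sox19a in PECs. The part of the neural markers in these differences was not tested. Extracellular matrix genes gave 19 higher in PECs and 12 in EECs of 85 (median log2 fold change 0.03), beside 15.6% and 18.6% of all genes. These counts were 10 and 6 without PEC replicate 2, and the count in PECs was 12 without PEC replicate 1.

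Transport genes divided gene by gene. cftr, the chloride channel of secretory epithelia, stood at 11.2, 20.6, 25.9 and 16.3 CPM in EECs and 0.495, 0.855 and 0.420 CPM in PECs (log2 fold change 5.01 ± 0.53, adjusted p = 1.52e-05), and ca4b, a membrane carbonic anhydrase, had 5178 counts in EECs against 3 in PECs, a ratio of 1472 (95% exact interval 503 to 7140). ca12 (-6.61) and ca6 (-5.83), other carbonic anhydrases, and the anion exchanger gene slc26a3.2 (-5.44) were higher in PECs. The list as a whole divided 14 to 17 among 71 (median log2 fold change 0.20), beside 18.6% and 15.6% of all genes. Among amino acid, peptide and sugar transporters 19 were higher in EECs and 22 in PECs of 84 (median log2 fold change -0.50). The neutral amino acid transporter gene slc1a4 was at 174, 157, 117 and 100.8 CPM in EECs and 2217, 1700.0 and 2326 CPM in PECs (-3.87 ± 0.28, adjusted p = 7.07e-07), while slc15a1b, the peptide transporter of the gut, was at 160.3, 172, 158 and 135 CPM in EECs and 10.8, 12.4 and 14.5 CPM in PECs (3.70 ± 0.27, adjusted p = 7.42e-07). slc1a4 and slc15a1b did not overlap between tissues.

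Genes tied to early development were more often higher in PECs, and the part of age, which goes with tissue and dissociation here, cannot be told apart. Of 34 early embryonic growth regulators, 16 were higher in PECs and 3 in EECs (median log2 fold change -0.72). For this list and the cell cycle list, the shares over all genes were 15.6% and 18.6%. lin28a, an RNA-binding protein of embryonic cells, stood at 14.1, 8.45, 8.95 and 9.49 CPM in EECs and 192, 157 and 95.8 CPM in PECs (log2 fold change -3.85 ± 0.35, adjusted p = 4.66e-06), and the pluripotency factor gene sall4 at 13.0, 8.48, 13.1 and 9.21 CPM in EECs and 78.3, 76.1 and 40.0 CPM in PECs (-2.56 ± 0.35, adjusted p = 0.000126). dnmt3bb.1, a DNA methyltransferase, was one of the 3 higher in EECs (4.81). Cell cycle genes gave 18 higher in PECs and 5 in EECs of 71, but without PEC replicate 3 the former count was 8 and without PEC replicate 2 it was 11, and the latter was 2 without PEC replicate 1 and 3 without EEC replicate 3 or PEC replicate 2 (median log2 fold change -0.89). The proliferation marker mki67 was among those higher in EECs, at 26.3, 20.8, 31.8 and 28.3 CPM in EECs and 6.30, 8.31 and 12.7 CPM in PECs (1.66 ± 0.33, adjusted p = 0.00203), and the condensin gene SMC4 among those higher in PECs (-2.81), so the list did not move one way.

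Of 34 Notch genes, 15 were higher in PECs and 8 in EECs (median log2 fold change -0.68), beside 15.6% and 18.6% of all genes. The ligands divided. dll4 was at 256, 263, 317 and 173 CPM in EECs and 30.6, 18.9 and 12.4 CPM in PECs (log2 fold change 3.61 ± 0.41, adjusted p = 2.35e-05), and jag1a at 3.77, 3.60, 4.43 and 5.3 CPM in EECs and 109, 55.4 and 53.9 CPM in PECs (-4.05 ± 0.37, adjusted p = 4.58e-06). The receptor gene notch2 was higher in EECs (3.08). Wnt, BMP and Hedgehog genes gave 12 higher in EECs and 19 in PECs of 92 (median log2 fold change -0.49), beside 18.6% and 15.6% of all genes. The gene furthest towards PECs on that list was dkk3b, a Dickkopf family member, at 19.9, 5.3, 5.75 and 9.33 CPM in EECs and 626, 539 and 822 CPM in PECs (-5.96 ± 0.47, adjusted p = 1.2e-06).

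The circadian clock was the most one-sided group of all the pathway lists by its count, with 31 of 39 tested genes higher in EECs and none higher in PECs (by edgeR, 0 at an unadjusted p under 0.05 and 0 by DESeq2; median log2 fold change 1.79), and sums of 4402 to 6408 CPM in EECs and 1265 to 1665 CPM in PECs. per2, a light-induced period gene of zebrafish, was at 539, 248, 428 and 512 CPM in EECs and 8.99, 23.8 and 15.9 CPM in PECs (log2 fold change 4.78 ± 0.47, adjusted p = 7.67e-06), and nr1d1, for the nuclear receptor Rev-erb alpha, at 38.2, 32.5, 27.5 and 36.7 CPM in EECs and 0.886, 0.239 and 0.258 CPM in PECs (6.22 ± 0.56, adjusted p = 4.1e-06). bhlhe40, a clock-controlled repressor, stood at 933, 501, 490.1 and 549 CPM in EECs and 57.9, 42.5 and 132 CPM in PECs (3.13 ± 0.38, adjusted p = 4.58e-05). Of the activator genes, npas2 (1.38, adjusted p = 0.0625) and bmal2 (1.32, adjusted p = 0.0204) were called higher in EECs, npas2 not without EEC replicate 4 or PEC replicate 1 or 3 (adjusted p = 0.182, 0.193 and 0.158), while clocka, clockb and arntl1a were not called, with log2 fold changes of 0.25, -0.43 and 0.46, though arntl1a was called higher in EECs without PEC replicate 3 (0.84, adjusted p = 0.0724). The time of day of the dissections was not given in the sources used here.

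Immediate early and heat shock genes were likewise higher in EECs in 32 of 51 cases and higher in PECs in 2, with sums of 33125 to 55111 CPM in EECs and 9131 to 17609.8 CPM in PECs. The inducible chaperone gene hsp70l, whose reads may also match its near-identical copies, stood at 1402, 2267, 10846 and 4076 CPM in EECs and 36.8, 21.3 and 22.9 CPM in PECs (log2 fold change 7.49 ± 0.80, adjusted p = 1.57e-05), and jun at 2441, 2499, 3382 and 2101 CPM in EECs and 239, 181 and 536 CPM in PECs (3.16 ± 0.36, adjusted p = 2.62e-05). fosab was not called, at 1608, 3656, 2557 and 1825 CPM in EECs and 1497, 1019 and 2652 CPM in PECs, except without PEC replicate 3 (0.85, adjusted p = 0.0906), and btg2, ier2a and junba lay within 2-fold. The part of dissociation, which differed between the tissues, was not tested.

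Many genes of core metabolism lay within 2-fold. Of 87 genes of cytosolic ribosomal proteins, 49 lay within 2-fold (median log2 fold change 0.04), 8 were higher in EECs (3 without EEC replicate 1, EEC replicate 3 or PEC replicate 3, and 4 without PEC replicate 1 or 2) and 1 in PECs. Of 100 nuclear genes of oxidative phosphorylation, 44 lay within 2-fold (median log2 fold change 0.20), 19 were higher in EECs and 5 in PECs (beside 18.6% and 15.6% of all genes), a count that was 11 without PEC replicate 3, 3 without EEC replicate 1 and 2 without PEC replicate 1 or 2. One of those higher in PECs was NDUFA4L2, a respiratory chain protein related to NDUFA4, at 2.84, 1.64, 0.452 and 0.813 CPM in EECs and 811, 1399.8 and 2087 CPM in PECs (log2 fold change -9.85 ± 0.62, adjusted p = 2.46e-07), with no overlap by a wide margin. The study itself reports that ndufa4l2 expression is restricted to beta cells of the pancreas and uses it as their marker. Among 23 glycolysis genes 9 were higher in EECs and 3 in PECs (median log2 fold change 0.77). The mitochondrially encoded protein genes gave 6 of 13 higher in EECs and none in PECs (by edgeR, 0 at an unadjusted p under 0.05 and 0 by DESeq2). Innate immunity genes were called about as often as all genes (18.6% and 15.6%), 9 of 44 higher in EECs, among them the cytokine gene il22 at 14.97, 148, 71.5 and 273 CPM in EECs and 0.313, 1.27 and 0.210 CPM in PECs (7.84 ± 1.26, adjusted p = 0.00137), and 5 higher in PECs (3 without EEC replicate 1 or 4 or PEC replicate 1 or 2).

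The markers of other cells that the gates could hold are given as sums. Exocrine pancreas markers summed to 50.3 to 229 CPM in EECs and 59.9 to 98.4 CPM in PECs, and 7 of 12 were called higher in EECs, but 2 were without EEC replicate 1 or without EEC replicate 2 and 3 without EEC replicate 4. The trypsin gene prss59.2 was at 102, 2.80, 0.0646 and 10.0 CPM in EECs and 0.443, 0.171 and 0.436 CPM in PECs, so EEC replicate 1 held most of it. Markers of pancreatic duct and progenitors summed to 10564 to 16329.9 CPM in EECs and 2956 to 3587 CPM in PECs, led by anxa4 and shared in part with the gut epithelium, with 8 of 11 higher in EECs. Red blood cell markers summed to 22.7 to 54.1 CPM in EECs and 58.4 to 240.5 CPM in PECs (1 of 7 tested higher in EECs and 2 in PECs). blvrb, a biliverdin reductase gene that other cells use too, gave most of this sum in EECs, at 16.96, 32.5, 50.1 and 40.4 CPM, and was higher there (log2 fold change 1.36). The globin gene hbae3 stood at 0.0650, 1.04, 0.0646 and 0.387 CPM in EECs and 211, 198 and 35.0 CPM in PECs (-8.69 ± 1.05, adjusted p = 0.000168), so the sums differed far less than the globin did. Markers of enteric neurons and glia summed to 503 to 654 CPM in EECs and 593 to 715 CPM in PECs, and beneath these overlapping sums 2 of 14 were higher in EECs, gfra1a (4.31) and ret (1.26), and 5 in PECs. The latter were the neuronal genes ELAVL3 (-4.96), elavl4 (-1.92), chata (-4.12) and tubb5 (-1.36) and the glial gene plp1b (-1.50), which moved with the axon and adhesion genes, and their part in those was not tested. plp1b is also on the study's marker list for epsilon (ghrelin) islet cells. Endothelial markers summed to 6.19 to 14.1 CPM in EECs and 9.37 to 12.1 CPM in PECs.

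**Figure D4:**
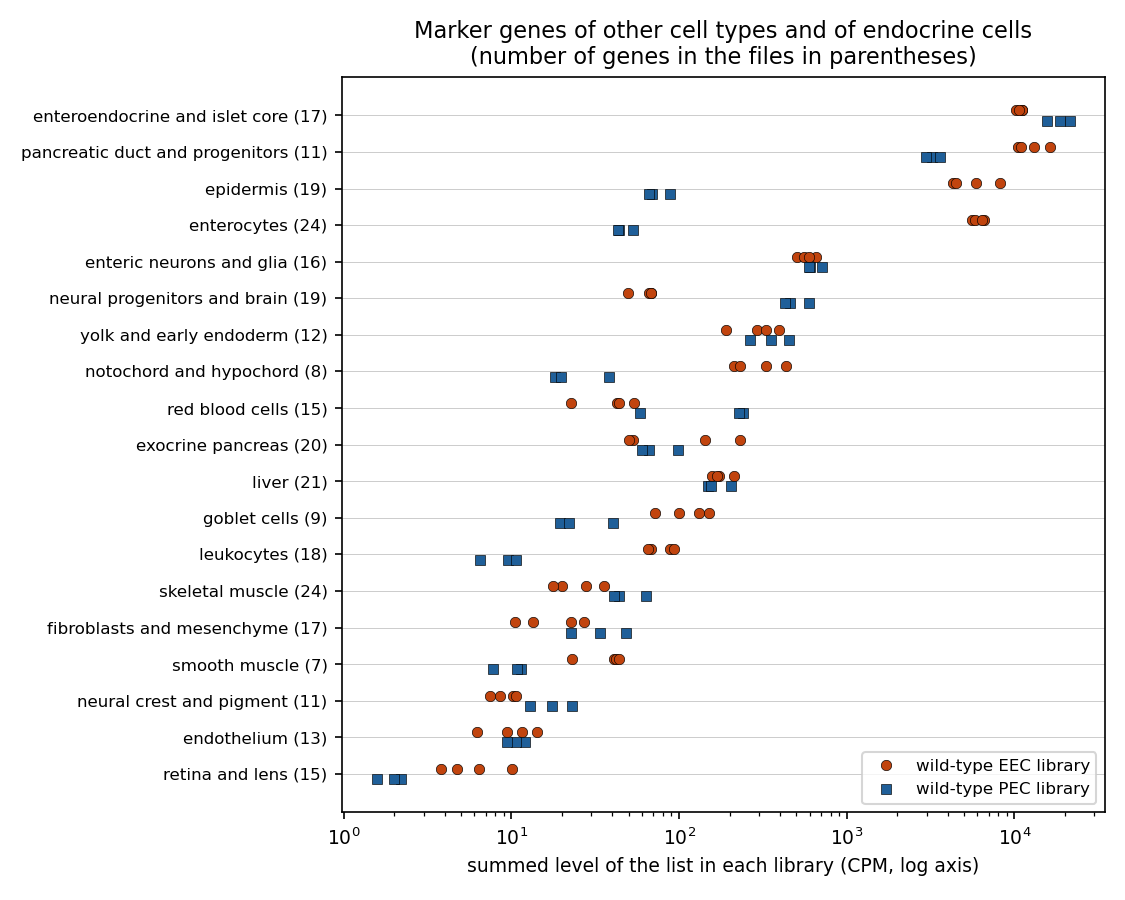
Summed level of each marker list for other cell types in each library, in CPM on a log axis, with EECs as orange circles and PECs as blue squares. Enterocyte (5615 CPM or more against 53.0 CPM or less), epidermis and leukocyte sums are higher in all EEC libraries, neural progenitor sums (427 CPM or more against 68.1 CPM or less) in all PEC libraries, and endothelial and enteric neuron sums overlap. Most of the leukocyte sum in EECs is from the gene rac2, and the largest part of the epidermis sum from icn. The largest part of the enterocyte sum in EECs is from tm4sf4, which is also on the study's epsilon cell list.

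Marker genes of single islet cell types, from a table of the study built on other data, were present on both sides. Of the beta cell list, 24 of 46 were higher in PECs and 4 in EECs (2 without EEC replicate 4, PEC replicate 1 or PEC replicate 2), of the delta cell list 17 of 46 and 8 (5 without PEC replicate 2), and of the alpha cell list 15 of 47 and 8 (5 without PEC replicate 1 or 2). The epsilon (ghrelin) cell list had calls in both directions, with 15 of 43 higher in PECs and 13 in EECs, and was the one list of these with the higher sum in EECs, 15034 to 16633 CPM in EECs and 8441 to 10744 CPM in PECs. The mitochondrially encoded gene mt-co3, which was not called, took the largest share of counts among its members, averaging 5453 CPM in EECs and 3395 CPM in PECs. tm4sf4 came next in EECs, and ghrl itself was higher in PECs (-2.46). kctd12.2, a delta cell list gene of the potassium channel tetramerization family, stood at 15.6, 18.1, 15.22 and 10.9 CPM in EECs and 843, 856 and 891 CPM in PECs (log2 fold change -5.81 ± 0.29, adjusted p = 4.14e-08), and ppdpfb, a beta cell list gene, at 649, 499, 521 and 772 CPM in EECs and 2594, 2884 and 3334 CPM in PECs (-2.20 ± 0.28, adjusted p = 6.76e-05). The pan-endocrine list, of genes common to all islet cell types, leaned to PECs, with 17 of 49 higher there and 8 in EECs, among the former PTN, for the growth factor pleiotrophin (-4.53). Over all genes, 15.6% were higher in PECs and 18.6% in EECs. The counts of 8 in EECs for the delta, alpha and pan-endocrine lists were near the latter share.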

How the data were processed

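RNA of sorted cells was amplified by the Smart-seq2 protocol, made into Nextera-XT libraries and sequenced. The authors trimmed the reads, mapped them to GRCz11 with STAR 2.5.4b and deposited its count of reads per gene for each library, without normalization, and these counts were used as deposited. Counting was by gene without a stated use of strand.

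Each of the 31901 gene IDs was named from the study's tables (5831), otherwise from the reference gene list (23437), and 2633 have no symbol. EECs and PECs were compared with edgeR 4.0.16 (R 4.3.3, limma 3.58.1) by TMM normalization, filterByExpr, a robust quasi-likelihood fit and its F test, two-sided, on the 7 wild-type libraries, with p-values adjusted by Benjamini-Hochberg across the 19610 tested genes and called under 0.1. A 95% interval came from the log2 fold change and its SE, taken from the F statistic. A gene was within 2-fold where that interval lay between -1 and 1. Ratios for genes with 1 to 3 counts in a tissue carry exact Clopper-Pearson intervals. The code was tested on simulated data. Tables were made with pandas 2.3.3, numpy 2.4.6 and scipy 1.17.1 and figures with matplotlib 3.10.9, in Python 3.11.15. DESeq2 1.42.0 served as an alternative.

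The comparison, the 32 pathway lists, 19 marker lists and 5 lists from the study's marker table were chosen with earlier results of these data known. Genes were named by a rule: pax6a and pax6b; in each list up to 6 called members per direction by size and up to 4 uncalled ones by level; the 15 largest differences per direction without overlap at 50 CPM or more; the 10 genes with the largest share of counts per tissue; the 10 most abundant genes within 2-fold; and up to 4 per marker list. A further 35 were named after their values were seen: CDH2, NR1I2, abcb4, abcc8, ahr2, arxa, bhlhe40, bmal2, calca, cdx1b, cdx4, clockb, elf3, fabp2, gata5, gfra1a, ghrl, hoxc3a, hoxd9a, insl5a, jun, junba, nmbb, npas2, pcsk2, pdx1, plp1b, ppdpfb, rfx6, robo3, rxfp3, scg2b, syt1a, tac1 and vamp2.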

Additional observations from a re-analysis of the deposited data

Results flagged for a closer look

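In 33 of 409 named genes with at least 10 CPM in a wild-type EEC library (8.07%), 1 of the 4 EEC libraries stood apart from the other 3 by Dixon's ratio at its 95% critical value, which chance exceeds in about 1 in 20 genes. EEC replicate 4 was that library in 17 genes, replicates 2 and 3 in 6 each and replicate 1 in 4. The genes share libraries and are not independent. No explanation was tested.

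EEC replicate 4 was high in the nuclear noncoding RNA malat1, at 41150 CPM against 4322 to 9435 in the other 3. It was also high in zgc:92066 (20730 CPM against 5119 to 6155), scg3 (5461 against 4500 to 4654), the E-cadherin gene cdh1 (1696 against 370 to 515), ywhae1 (1695 against 405 to 494), zfand5b (1667 against 342 to 484), plac8.1 (1595 against 516 to 699) and ptmaa (1570 against 738 to 818). BX908782.3 reached 1193 CPM there (317 to 462 in the others), eif4a1a 946.9 (244 to 352), cd164 914.4 (548 to 603), the convertase gene furina 289.8 (113 to 135), fam107b 188.1 (94.4 to 100.1) and SERPINC1 66.52 (52.7 to 54.6). It was low in rps2 (1461 CPM against 2779 to 2966), gata6 (28.65 against 87.9 to 98.7) and abcg2c (20.71 against 55.7 to 62.3).

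EEC replicate 2 was high in the immediate early genes ier2a (1442 CPM against 488 to 550 in the other 3), egr4 (1282 against 659 to 765) and dusp2 (935.9 against 273 to 289) and in CLDN8 (20.98 against 14.06 to 14.98), and low in si:ch211-195b15.8 (586.5 against 1063 to 1110) and abcb11a (25.3 against 32.5 to 33.3). EEC replicate 3 was high in pam (666.3 CPM against 426 to 447), eno1a (611.1 against 372 to 398), atp1a1a.4 (96.24 against 67.3 to 69.8), sst1.1 (65.77 against 0 to 6.99) and sstr5 (26.69 against 8.28 to 9.87), and low in ITGB5 (18.91 against 28.0 to 29.7). EEC replicate 1 was high in bhlhe40 (932.8 CPM against 490.1 to 549) and in the trypsin gene prss59.2 (102.3 against 0.0646 to 10.0), and low in ddc (391.9 against 505 to 521) and FABP6 (8.762 against 20.1 to 21.4). Without EEC replicate 3 the log2 fold change of sst1.1, a somatostatin gene, was -7.59 (adjusted p = 0.00621 by edgeR), against -4.77 (adjusted p = 0.0893) with all 7 libraries.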

How the results depend on the processing

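The 6712 called genes were refitted under 18 alternatives, and no gene called at first was called in the opposite direction in any of them. A demand of at least 10 CPM in 3 libraries left 4278 calls, 2194 of them higher in EECs, since fewer genes were tested. A test against a 2-fold change left 3511 calls (2116 higher in EECs and 1395 higher in PECs), since it asks for more than a difference. DESeq2 gave 8014 calls, RLE normalization 6681, library totals alone 6347, no filter on low counts 6867, a single fit of all 13 libraries 7873 and a threshold of 0.05 gave 5367. Leaving out 1 library at a time gave 4926 (without PEC replicate 2) to 6602 calls (without EEC replicate 4).

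The number of genes within 2-fold was 2238 with all 7 libraries and between 1194 and 2259 with 1 library left out, the lowest without PEC replicate 2, with 1271 without PEC replicate 1, where intervals rest on 2 PEC libraries. The last 2 alternatives were chosen after seeing the data. Totals that leave out the pair of genes without a symbol moved the median log2 fold change of all genes by -0.18 and turned the balance of calls, with 3043 higher in EECs and 3671 higher in PECs (45.3% against 54.4% higher in EECs with the pair counted). With EEC replicate 4 and PEC replicate 3 left out together there were 7046 calls, and pcsk2, not called with all libraries, was called higher in EECs (log2 fold change 1.32, adjusted p = 0.0073), against -0.63 before. The replicate numbers do not pair EEC and PEC libraries. Deviations from the tissue means correlated at -0.07, 0.08 and 0.01 for the same numbers 1, 2 and 3, and a fit with the replicate number as a block, without EEC replicate 4, gave 6067 calls (5538 of them among the 6712).

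Of 447 named genes that were called, 346 kept their call in each of the 18 alternatives that tested them, the rest lost it in at least 1 and none reversed. Of 168 that were not called, 57 were called in at least 1. Which tissue had more called members changed in some alternative for granule, exocytosis, sensing, transmitter, cell cycle, ribosomal, ER folding, Notch and both transport lists, for the epsilon cell list and for several lists of markers with few calls. For the hormone lists, endocrine and gut transcription factors, hox, xenobiotic, lipid, clock, immediate early, receptor, glucose, adhesion, claudin, axon, embryonic, enterocyte and neural progenitor lists it did not change in any. Depth limits genes near the floor, and 3 PEC libraries limit small differences.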

Other observations

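Some called genes had no count in one tissue. Against a floor of 3 counts per PEC library, si:ch211-231m23.4 was at least 156-fold, zgc:110712 at least 132-fold and the cathepsin L gene ctsl.1 at least 107-fold higher in EECs. The chemokine gene cxcl8b.1, which attracts neutrophils, was at 2.24, 3.51, 3.36 and 1.32 CPM in the 4 EEC libraries and had no count in PECs, at least 34.1-fold. These genes were picked after their values were seen.

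Genes within 2-fold that were abundant on both sides included oaz1a, the antizyme of polyamine control, at 1203, 1336, 1336 and 1942 CPM in EECs and 1209, 1317 and 1271 CPM in PECs, and the RNA-binding protein gene cirbpb at 1951, 1139, 1594 and 1776 CPM in EECs and 1915, 1237 and 1500.5 CPM in PECs. The calmodulin gene calm2b was at 727, 803, 529.8 and 889 CPM in EECs and 739.5, 889 and 1105 CPM in PECs, and the brain-type aldolase gene aldocb at 676, 462, 979.6 and 598 CPM in EECs and 668, 608 and 1256 CPM in PECs. Each of the 4 overlapped between the tissues.

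Endoplasmic reticulum folding and stress genes divided evenly, 9 to 9 of 55, beside 18.6% and 15.6% of all genes. Without PEC replicate 2 the counts were 7 and 1, while the count in PECs was 4 without EEC replicate 1, EEC replicate 3 or PEC replicate 1. Among the remaining markers of other cells, notochord and hypochord markers summed to 213 to 431 CPM in EECs and 18.2 to 38.1 CPM in PECs (3 of 5 tested higher in EECs), nearly all of it from the keratin gene krt18 at 319, 205, 419 and 219 CPM in EECs and 16.5, 17.96 and 36.1 CPM in PECs, while the notochord gene tbxta stayed under 2 CPM in every library and was not called. Smooth muscle markers summed to 22.8 to 43.9 CPM in EECs and 7.73 to 11.4 CPM in PECs (2 of 5 higher in EECs), in EECs mostly from smtnb at 34.4, 32.5, 40.3 and 19.98 CPM, while acta2, the smooth muscle actin gene, was not called (log2 fold change 0.18). Liver markers summed to 157 to 213 CPM in EECs and 148 to 204 CPM in PECs and the list of yolk and early endoderm to 191 to 392 CPM in EECs and 264 to 453 CPM in PECs, both overlapping. The endoderm factor foxa3 gave the largest part of the latter sum, and of its members gata6 was higher in EECs (4.49) and HHEX in PECs (-7.41). Skeletal muscle markers summed to 17.8 to 35.6 CPM in EECs and 40.9 to 63.4 CPM in PECs, fibroblast markers to 10.5 to 27.0 CPM in EECs and 22.6 to 48.5 CPM in PECs, neural crest markers to 7.40 to 10.6 CPM in EECs and 13.0 to 23.1 CPM in PECs, and retina and lens markers to 3.80 to 10.1 CPM in EECs and 1.57 to 2.19 CPM in PECs.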
